A study of Mus musculus with 22 samples.

Results

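The genes described here are the mouse cytochrome P450 genes of the families Cyp2, Cyp3 and Cyp4, measured by RNA sequencing of small intestine. A gene was taken when it was protein-coding, its symbol was Cyp2, Cyp3 or Cyp4 followed by a letter and a number, and its raw counts summed to 50 or more over all 22 libraries. Of 73 protein-coding genes named in this way, 44 met the count sum, out of 54838 gene identifiers in the count table. They were 26 Cyp2, 5 Cyp3 and 13 Cyp4 genes, and 37 of them (22, 5 and 10) had enough counts for a test. The genes were thus chosen by their count sum in these libraries, and the group was proposed with its zinc and genotype changes known, so the counts below describe these genes and are not independent evidence. The genes just inside the limit were Cyp2d9 with a sum of 54 counts and Cyp2j5 with 59, and those just outside were Cyp2c69 with 44 and Cyp2t4 with 41. A further 6 genes of the same name pattern had no count in any library.

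The mice were female FVB/N animals, 8 to 14 weeks old, that carried either the wild-type glucocorticoid receptor (GRWT) or, on both alleles, a point-mutated receptor that forms fewer dimers and contacts DNA less well (GRDim). For 7 days their drinking water was either plain or held ZnSO4 at 25 mM. GRWT on water and GRWT on zinc had 5 libraries each, and GRDim on water and GRDim on zinc had 6 each. Of the 22 libraries, 12 carry the label ileum and 10 the label IEC, for intestinal epithelial cells scraped from the distal ileum. Every cell of a GRDim mouse carries the mutation, so a difference need not arise in the epithelium itself.

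Cytochrome P450 enzymes are haem proteins that insert oxygen into small molecules with electrons from the reductase Por. Cyp2 and Cyp3 enzymes mainly oxidise drugs, food chemicals and steroids, and several of their genes are switched on through the nuclear receptors PXR (Nr1i2) and CAR (Nr1i3). Cyp4 enzymes mainly hydroxylate the end of fatty acid chains, leukotrienes and other eicosanoids, and in the intestine all of these families are found chiefly in the absorptive enterocytes of the villi.

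Library totals were 13149951 to 15620744 counts. The smooth muscle myosin gene Myh11 divided the libraries into 12 muscle-rich ones (298 to 463 CPM) and 10 muscle-poor ones (3.22 to 20.5 CPM). CPM are counts per 1000000 counts of the library, unscaled for Myh11 and otherwise given after scaling between libraries. This division did not follow the tissue labels: 7 of the 10 libraries labelled IEC were muscle-rich, as were 5 of the 12 labelled ileum. The tests below therefore carried the division (Myh11 over or under 100 CPM) as a covariate, except where another covariate, none, or 1 side alone is named. The library labelled GRWT zinc ileum replicate 3 (column WT_ZN1-3) was left out of these tests, because it stood far from the rest: its 11 markers of proximal small intestine summed to 38100 CPM against 337 to 790 CPM in the others, and Fabp6, the ileal bile acid binding protein, was at 18.2 CPM against 3970 to 11600 CPM. Epithelial markers were present in all libraries (summed level 15700 to 28800 CPM), and exocrine pancreas markers were at or near 0 (at most 0.252 CPM). Nr3c1, the gene of the glucocorticoid receptor, was read in every library at 214 to 318 CPM. On water it was at 272 to 308 CPM in GRWT and at 214 to 255 CPM in GRDim. Its counts do not check the genotype, since the mutation changes a single residue. In bulk tissue, fewer cells of a type and less RNA per cell cannot be told apart.

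The promoters of 6 genes on which the results turn are printed here, each as 250 bases before and 50 bases after the start of the RefSeq transcript on the strand of the gene, from build GRCm38.p6. All lie 5′ to 3′ as the gene is read. Capitals mark matches, on either strand, to letters bound by known regulators: AGTTCA (PXR and CAR), TGTTCT (glucocorticoid receptor), TGACCTTTG (PPAR and HNF4), and TGCACNC or TGCGCNC (the metal-responsive factor MTF1). Cyp2d26 and Cyp4b1 are shown as the genes called lower in GRDim on each side of the Myh11 division tested alone, Cyp3a44 for the size of its genotype difference, Cyp3a11 as the standard PXR target, and Cyp3a25 and Cyp2c65 as genes that moved with both genotype and zinc.
Cyp2d26: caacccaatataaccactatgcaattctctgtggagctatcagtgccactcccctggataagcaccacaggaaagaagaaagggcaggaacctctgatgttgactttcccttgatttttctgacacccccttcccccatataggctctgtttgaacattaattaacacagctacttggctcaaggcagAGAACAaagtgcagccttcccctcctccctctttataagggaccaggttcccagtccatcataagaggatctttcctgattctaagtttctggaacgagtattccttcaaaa
Cyp4b1: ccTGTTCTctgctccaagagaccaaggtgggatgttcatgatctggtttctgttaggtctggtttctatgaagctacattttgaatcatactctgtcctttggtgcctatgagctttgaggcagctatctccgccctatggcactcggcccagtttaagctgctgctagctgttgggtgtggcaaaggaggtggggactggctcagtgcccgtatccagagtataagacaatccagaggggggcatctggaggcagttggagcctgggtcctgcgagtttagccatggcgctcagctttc
Cyp3a44: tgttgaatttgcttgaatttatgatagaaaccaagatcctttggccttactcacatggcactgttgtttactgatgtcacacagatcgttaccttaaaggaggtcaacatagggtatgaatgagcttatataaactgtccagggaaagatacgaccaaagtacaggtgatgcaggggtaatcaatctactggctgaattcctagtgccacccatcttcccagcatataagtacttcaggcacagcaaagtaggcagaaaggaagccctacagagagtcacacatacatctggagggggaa
Cyp3a11: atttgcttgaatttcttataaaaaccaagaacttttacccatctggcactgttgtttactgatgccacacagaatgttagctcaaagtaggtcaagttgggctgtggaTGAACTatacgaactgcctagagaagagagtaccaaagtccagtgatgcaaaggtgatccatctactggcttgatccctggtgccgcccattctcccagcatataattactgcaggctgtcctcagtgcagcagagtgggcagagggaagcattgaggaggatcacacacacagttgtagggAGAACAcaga
Cyp3a25: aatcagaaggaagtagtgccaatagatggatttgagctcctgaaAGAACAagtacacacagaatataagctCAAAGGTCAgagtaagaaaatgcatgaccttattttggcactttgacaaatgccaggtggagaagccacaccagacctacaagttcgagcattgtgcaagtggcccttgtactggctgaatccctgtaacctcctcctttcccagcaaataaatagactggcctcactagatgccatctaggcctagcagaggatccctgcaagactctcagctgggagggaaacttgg
Cyp2c65: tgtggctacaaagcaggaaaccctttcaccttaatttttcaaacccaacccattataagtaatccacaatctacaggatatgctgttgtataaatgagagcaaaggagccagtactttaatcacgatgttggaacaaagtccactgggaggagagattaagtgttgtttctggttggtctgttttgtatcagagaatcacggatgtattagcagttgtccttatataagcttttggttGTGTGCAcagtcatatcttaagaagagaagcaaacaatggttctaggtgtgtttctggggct
The windows are chr15:82794196-82794495, chr4:115647672-115647971, chr5:145805825-145806124, chr5:145879805-145880104 and chr5:146009569-146009868 on the minus strand and chr19:39060756-39061055 on the plus strand, in the order printed. The 4 genes Cyp2d26, Cyp4b1, Cyp3a11 and Cyp3a25 held TGTTCT on one or the other strand, and Cyp3a44 held none of the letters. Of the 44 genes, 36 had a promoter in the RefSeq table. TGTTCT stood in 9 of these 36 (25%) against 19% of the 27025 promoters of the table, AGTTCA in 3 (8.33%) against 14%, TGACCTTTG in 2 (5.56%) against 0.466%, TGCACNC in 4 (11.1%) against 12.4% and TGCGCNC in 1 (2.78%) against 15.5%. The 2 genes with TGACCTTTG, Cyp3a25 and Cyp3a59, are Cyp3a genes that lie on chromosome 5. For the genes described here the promoter nearest the annotated start was taken, and for the table the first listed per symbol. A match describes the letters only, and no match says only that they are not in this window.

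Levels differed by several orders of magnitude between these genes. Per kilobase of exon, over the 21 libraries tested, Cyp4f14, which hydroxylates leukotriene B4, led with 241 ± 66.6 CPM per kb (SD, n = 21). Cyp2d26 followed with 68.2 ± 37.6, Cyp3a25 with 63.3 ± 27.5, Cyp4f40 with 62 ± 12.1, Cyp3a13 with 54.3 ± 15.1 and Cyp4v3 with 51.8 ± 17.4 CPM per kb. Among these neighbours the SDs exceeded the steps between the means, so only Cyp4f14 stood clear in this order. The 10 genes with the largest count sums took 87.9% of all counts of the 44 genes, and Cyp4f14 alone took 27%. Genes known mainly from liver, lung or kidney, such as Cyp2c29, Cyp2f2, Cyp2c70 and Cyp2j5, were at 0.145 CPM per kb or less.

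**Figure D1:**
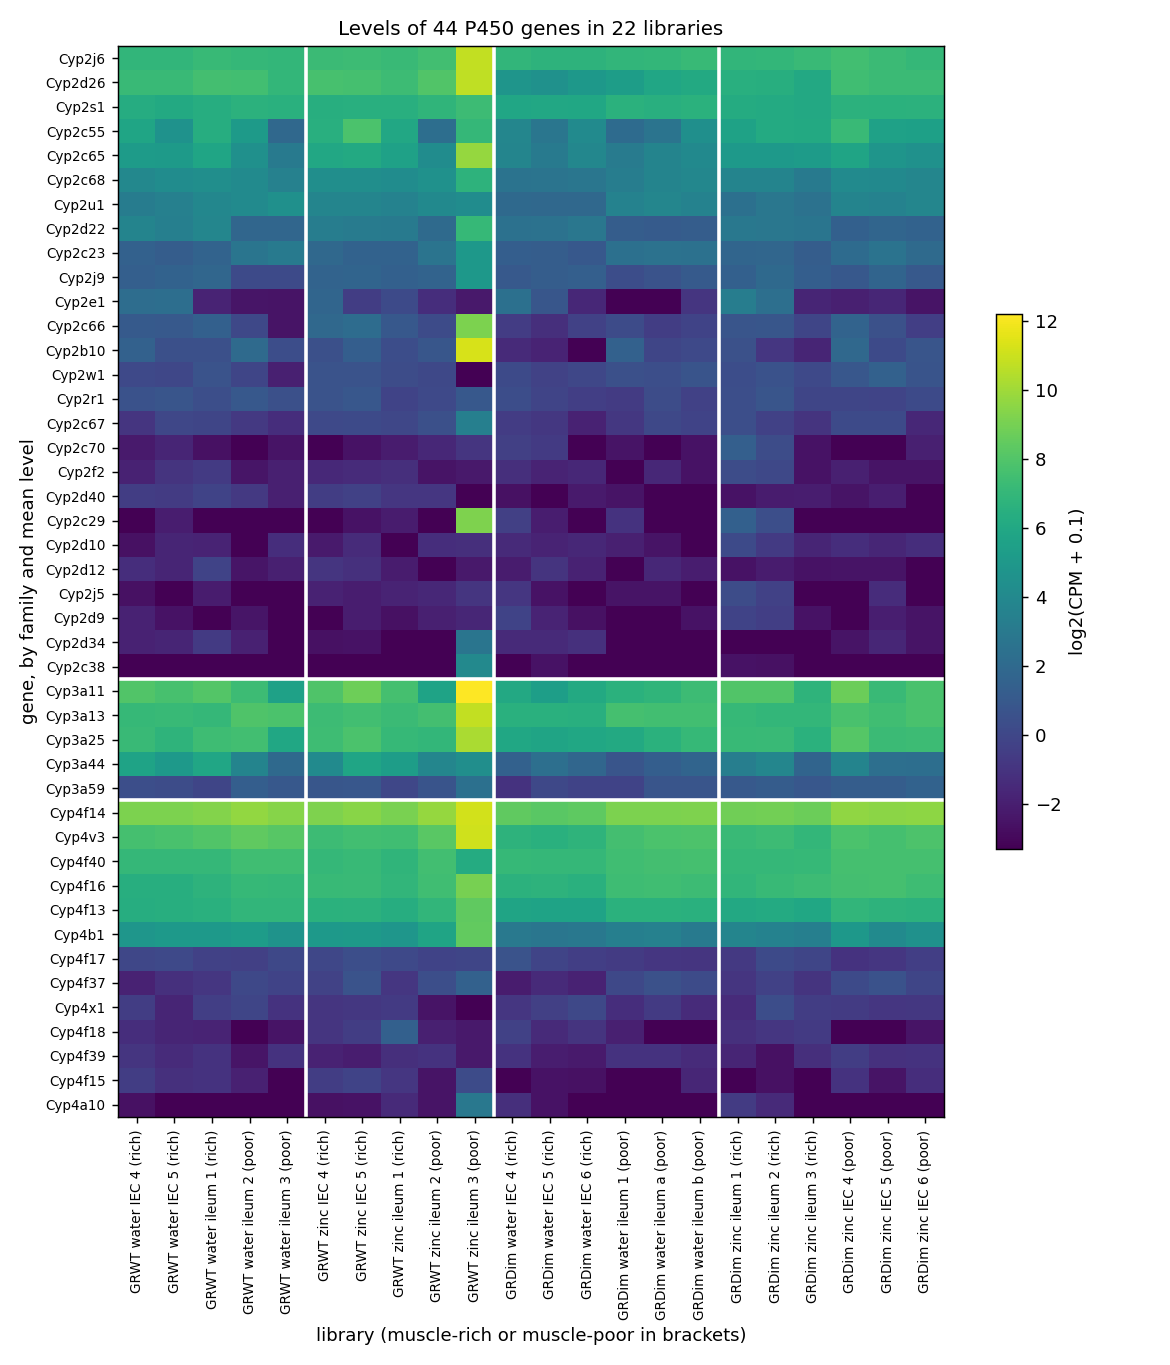
Heat map of log2(CPM + 0.1) of the 44 genes (rows, by family and by mean level) in the 22 libraries (columns, by condition, with muscle-rich or muscle-poor in brackets). The column GRWT zinc ileum 3, left out of the tests, is the bright one. In the GRDim water columns the rows Cyp2d26 and Cyp4b1 are darker than in the GRWT columns. The row Cyp3a44 is so only within each side of the Myh11 division.

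The first comparison set GRDim against GRWT without zinc, to ask what the dimerisation mutation alone does to these genes. A gene was called when its adjusted p in edgeR's quasi-likelihood test (Benjamini-Hochberg over the 16332 genes tested) was under 0.05 and its log2 fold change was over 0.8 in size. In GRDim, 11 of the 37 genes were lower and 0 were higher, against 3.47% of all tested genes lower and 3.9% higher. The median log2 fold change of the 37 genes was -0.43, and that of all tested genes was 0. The 11 genes were 7 Cyp2 genes (Cyp2b10, Cyp2c65, Cyp2c68, Cyp2d22, Cyp2d26, Cyp2d40 and Cyp2u1), 2 Cyp3 genes (Cyp3a25 and Cyp3a44) and 2 Cyp4 genes (Cyp4b1 and Cyp4v3). By adjusted p alone, 16 were lower and 1, Cyp4f16, was higher, against 15.8% and 16.4% of tested genes. Without the Myh11 covariate 6 were lower (Cyp2c65, Cyp2c68, Cyp2d26, Cyp2d40, Cyp3a44 and Cyp4b1), and the same 6 with the tissue label as covariate, against 1.7% and 1.75% of tested genes.

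Cyp2d26, a member of the Cyp2d family of drug-oxidising enzymes, stood at 148, 149, 187, 183 and 122 CPM in the 5 GRWT libraries on water. In the 6 GRDim libraries on water it ran from 22.6 through a median of 35.8 to 69 CPM. The lowest GRWT library was above the highest GRDim library, so the groups did not overlap. The difference was -2.10 ± 0.21 on the log2 scale (SE, adjusted p = 6.02e-06).

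Cyp4b1, which oxidises fatty acids and several foreign compounds, was at 28.7, 34, 34, 38.4 and 24.7 CPM in GRWT on water. GRDim libraries on water ranged from 6.85 through a median of 7.77 to 11.3 CPM. Again no GRDim library reached the lowest GRWT library. The difference was -1.98 ± 0.19 (adjusted p = 3.22e-06). Cyp2d26 and Cyp4b1 were also the only members called within the muscle-poor libraries alone, at -1.45 ± 0.24 and -1.69 ± 0.29 (adjusted p = 0.0255 and 0.0238, with 0.516% of tested genes lower there).

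Among the Cyp3a genes, whose enzymes hydroxylate steroids and many drugs, Cyp3a44 fell most. It was at 50.9, 33.4 and 57.1 CPM in the muscle-rich GRWT libraries on water and at 12.7 and 3.93 CPM in the muscle-poor ones, and from 1.62 through 2.85 to 5.07 CPM in GRDim. The lowest GRWT value lay inside the GRDim range over all libraries, but on each side of the division every GRWT library was above every GRDim library. The difference was -3.10 ± 0.54 (adjusted p = 0.000486), and of the 50-base words of its transcript 73.5% are unique to the gene, so reads shared with its neighbours were not counted.

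Cyp3a25 was at 149, 109, 167, 180 and 61.5 CPM in GRWT on water and from 52.4 through 64.8 to 134 CPM in GRDim, so the groups overlapped. Its difference of -0.84 ± 0.31 passed narrowly (adjusted p = 0.0455) and was lost in 9 of 11 fits that left out 1 library. Cyp3a11, the PXR target most used as a marker of that receptor, was at 252, 207, 260, 157 and 48 CPM in GRWT and from 42 through 82.3 to 163 CPM in GRDim, and was not called (-0.96 ± 0.55, adjusted p = 0.198). Cyp3a13, a Cyp3a gene of the intestine, differed by -0.43 ± 0.10 (adjusted p = 0.00293), under the fold limit, and Cyp3a59 by -0.57 ± 0.26 (adjusted p = 0.0938).

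Of the Cyp2c genes, which epoxidise arachidonic acid and oxidise drugs, Cyp2c65 was at 36.7, 34.5, 55.2, 22.2 and 7.86 CPM in GRWT on water and from 8.23 through 13.1 to 16.6 CPM in GRDim. The muscle-poor GRWT replicate 3 lay under every GRDim library and the other 4 GRWT libraries lay above them, and the difference was -1.19 ± 0.37 (adjusted p = 0.0237). This call was lost in 3 of 11 fits without 1 library and in a fit of the compared conditions alone (adjusted p = 0.0562). Cyp2c68 differed by -0.92 ± 0.21 (adjusted p = 0.0027), with 56.7% of its 50-base words unique. Cyp2c55, which epoxidises arachidonic acid in the gut, was at 56.1, 23.6, 80.3, 35.3 and 3.7 CPM in GRWT and from 4.24 through 10.2 to 21.5 CPM in GRDim, and was not called (-1.61 ± 0.75, adjusted p = 0.11). Cyp2c66 was not called either (-1.06 ± 0.53, adjusted p = 0.136).

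Cyp2u1, which hydroxylates long-chain fatty acids, was at 9.02, 10.9, 14.5, 17.2 and 22.3 CPM in GRWT on water and from 3.62 through 7.75 to 13.6 CPM in GRDim. The groups overlapped over all libraries, but on each side of the Myh11 division every GRWT library was above every GRDim library. The difference was -1.11 ± 0.18 (adjusted p = 0.000162), and the gene 4930534D22Rik on the other strand overlaps its exons. Cyp2d22 differed by -0.90 ± 0.13 (adjusted p = 3.24e-05).

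The remaining called genes rested on low levels or narrow margins. Cyp2d40 was at 0.602, 0.549, 0.78, 0.503 and 0.157 CPM in GRWT on water and at most 0.118 CPM in GRDim, where every library held fewer than 3 counts, so its difference of -3.24 ± 0.52 (adjusted p = 0.000121) rests on very few counts. Cyp2b10, the standard CAR target, was at 2.71, 1.3, 1.3, 4.11 and 1.18 CPM in GRWT and from 0 through 0.55 to 2.78 CPM in GRDim (-1.71 ± 0.59, adjusted p = 0.0351), and its call too was lost in 9 of 11 fits without 1 library. Cyp4v3, a fatty acid hydroxylase, ran from 196 to 342 CPM in GRWT and from 92.8 to 229 CPM in GRDim, with a difference of -0.85 ± 0.11 (adjusted p = 1.61e-05), which fell under the fold limit in 2 of 11 fits without 1 library, and the predicted gene Gm45753 overlaps its exons.

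Other genes passed the adjusted p with changes under the fold limit. Cyp4f14 differed by -0.64 ± 0.09 (adjusted p = 2.87e-05) and Cyp4f13 by -0.51 ± 0.08 (adjusted p = 8.86e-05). Cyp2r1, a gene of low level here that carries out the first hydroxylation of vitamin D, differed by -0.78 ± 0.25 (adjusted p = 0.0218), and Cyp2s1 by -0.18 ± 0.06 (adjusted p = 0.0256). Cyp2j6, an epoxygenase of the gut (-0.13 ± 0.08, adjusted p = 0.223), and Cyp4f40 (0.07 ± 0.05, adjusted p = 0.326) did not pass.

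**Figure D2:**
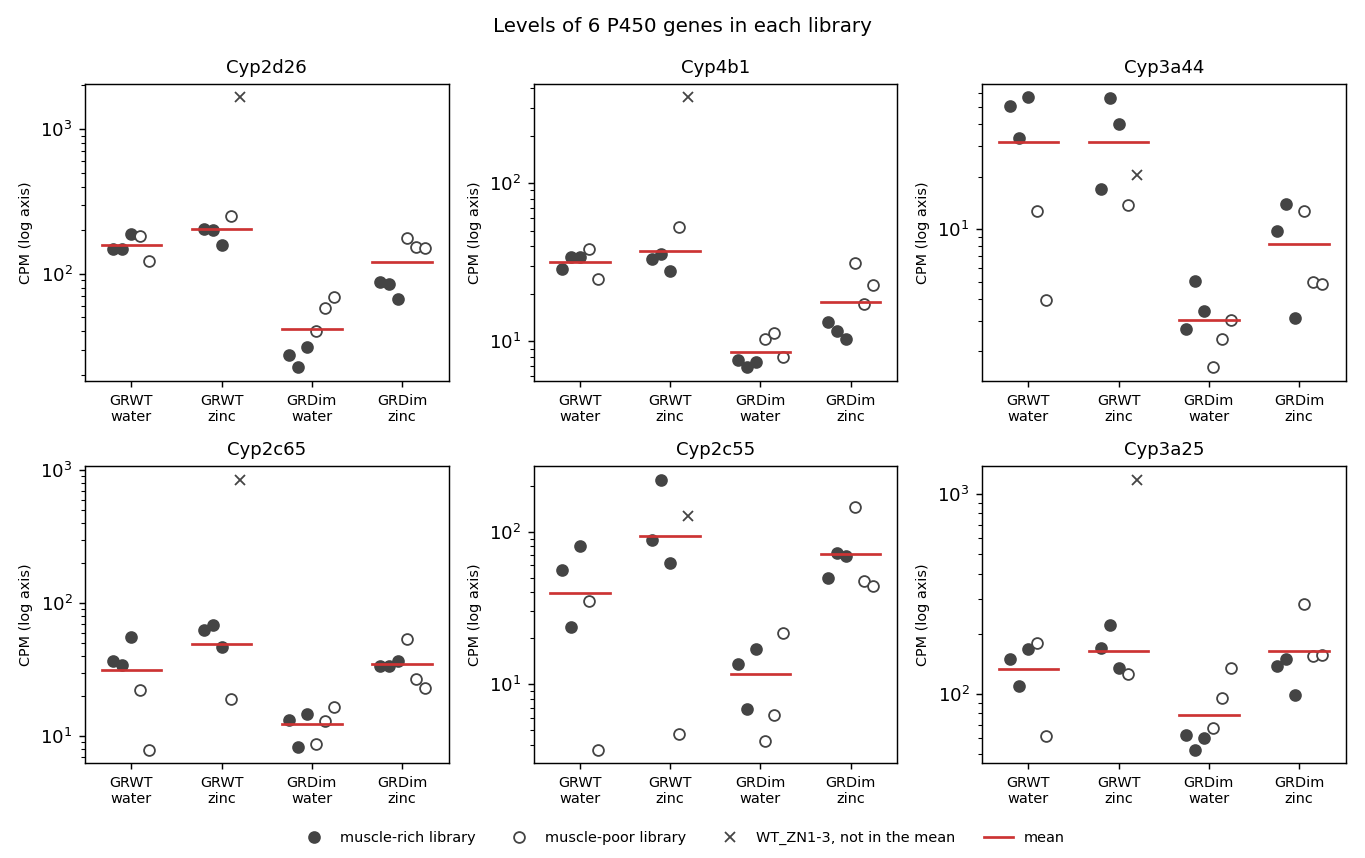
Levels in CPM (log axis) of 6 genes in each library, by condition; filled circles are muscle-rich and open circles muscle-poor libraries, the cross is the library WT_ZN1-3, and the line is the mean without it. For Cyp2d26 and Cyp4b1 all 6 GRDim libraries on water lie under all 5 GRWT libraries on water, and on each side of the Myh11 division the GRDim libraries on zinc lie above those on water.

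The genotype difference was not equal on the 2 sides of the Myh11 division. Its interaction with the division on water was negative and called (adjusted p alone) in 6 members and positive in 0, against 3.45% and 3.99% of all tested genes. These were Cyp2c68 (-1.34 ± 0.29, adjusted p = 0.00862), Cyp2d26 (-1.13 ± 0.30, adjusted p = 0.0346), Cyp2u1 (-0.96 ± 0.23, adjusted p = 0.0144), Cyp4v3 (-0.56 ± 0.17, adjusted p = 0.0495), Cyp4f14 (-0.52 ± 0.13, adjusted p = 0.0198) and Cyp4f13 (-0.41 ± 0.11, adjusted p = 0.0303). Without GRWT water ileum replicate 3 only Cyp2u1 was called, against 1.08% of tested genes, and the calls for Cyp4v3, Cyp4f13 and Cyp2d26 were lost in 8, 7 and 6 of 11 fits without 1 library. In the muscle-rich libraries alone 16 members were lower in GRDim, against 5.43% of tested genes, and in the muscle-poor libraries alone 2 were. The muscle-rich GRDim libraries on water are all labelled IEC and the muscle-poor ones are all labelled ileum, so label and division cannot be told apart there.

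Markers of other cell types moved with the same comparison. Of 8 lymphocyte markers 7 were higher in GRDim on water and 0 lower, and their summed level was 3930 to 4840 CPM in GRDim and 1390 to 1810 CPM in GRWT in muscle-rich libraries, and 248 to 422 and 160 to 357 CPM in muscle-poor ones. Of 10 markers of absorptive enterocytes 2 were lower and 0 higher. Their sum was 9340 to 10000 CPM in GRDim and 11500 to 12000 CPM in GRWT in muscle-rich libraries, and 19600 to 20200 and 27900 to 28000 CPM in muscle-poor ones, so it was lower in GRDim on both sides. Of 8 crypt and Paneth cell markers 2 were lower and 0 higher, with sums of 2100 to 2250 CPM in GRDim and 4730 to 5990 CPM in GRWT in muscle-rich libraries and 2790 to 3430 and 3430 to 4330 CPM in muscle-poor ones. Of 11 liver markers tested 2 were higher (median 2.23). Apart from Cps1, which enterocytes also express (502 to 847 CPM on water), the other 11 of the list summed to 14.1 to 148 CPM in GRDim and 8.96 to 24.2 CPM in GRWT in muscle-rich libraries, and to 8.47 to 10.3 and 4.79 to 7.15 CPM in muscle-poor ones. The sums of 2 further lists were lower in GRDim on both sides without overlap. That of 8 goblet, tuft and enteroendocrine cell markers (1 called higher, 0 lower) was 4910 to 5530 CPM in GRDim and 7310 to 7700 CPM in GRWT in muscle-rich libraries, and 8650 to 9410 and 11200 to 11600 CPM in muscle-poor ones. That of 9 ileal markers (1 lower, 0 higher) was 10200 to 11600 and 13200 to 14900 CPM, and 16400 to 18700 and 21300 to 21700 CPM. Of 8 mesenteric fat markers 1 was lower, of 11 proximal markers 2 were higher and 1 lower, and of 10 epithelial markers none was called. The part of these markers in the P450 differences was not tested.

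On zinc, GRDim differed from GRWT in fewer of these genes. Lower were 4 (Cyp2d26, Cyp4b1, Cyp2u1 and Cyp2d40) and higher 0, against 0.771% of tested genes lower and 1.68% higher. None was called without the Myh11 covariate or with the tissue label as covariate, against 0.049% and 0.0429%. The muscle-rich libraries on zinc are all labelled ileum in GRDim and IEC or ileum in GRWT. The muscle-poor ones are all labelled IEC in GRDim and ileum in GRWT. Within a side, genotype and tissue label are thus mixed. On the muscle-rich side taken by itself 8 were lower, against 1.96% of tested genes, the 4 above with Cyp2c66, Cyp2c68, Cyp3a44 and Cyp4f15. In the muscle-poor libraries alone, with a lone GRWT library on zinc, 0 were, against 0.0488%. Cyp2d26 was at 204, 200, 158 and 249 CPM in the 4 GRWT libraries on zinc and from 66.7 through 119 to 177 CPM in GRDim, where the highest GRDim value exceeded the lowest GRWT value (-0.99 ± 0.22, adjusted p = 0.013). Cyp4b1 was at 33, 35.6, 28 and 53 CPM in GRWT and from 10.3 through 15.2 to 31.3 CPM in GRDim (-1.24 ± 0.19, adjusted p = 0.00194). Cyp2u1 differed by -0.93 ± 0.19 (adjusted p = 0.00786) and Cyp2d40, again on very few counts, by -2.29 ± 0.48 (adjusted p = 0.00787). Cyp3a44 was not called (-1.56 ± 0.51, adjusted p = 0.0662). Cell type markers moved in this comparison as well. Of 8 lymphocyte markers 3 were higher in GRDim (sum 3460 to 4370 CPM against 1080 to 1720 CPM in muscle-rich libraries) and of 11 liver markers tested 3 were higher (median 2.96, sum without Cps1 of 12.1 to 401 against 8.47 to 40.1 CPM in muscle-rich and 7.8 to 9.17 against 3.36 CPM in muscle-poor libraries). Of 8 crypt and Paneth cell markers 1 was lower (1760 to 3570 against 4460 to 6010 CPM in muscle-rich libraries), of 8 mesenteric fat markers 1 was lower (20.4 to 28.3 against 27.7 to 236 CPM in muscle-rich libraries), and of 11 proximal markers 2 were higher and 1 lower. In muscle-rich libraries 3 more sums did not overlap. Lower in GRDim were those of goblet, tuft and enteroendocrine cell markers (4930 to 6440 against 6790 to 7760 CPM) and proximal markers (386 to 511 against 577 to 656 CPM). Higher was that of epithelial markers (19500 to 19900 against 15700 to 18100 CPM). The part of these markers in the P450 differences on zinc was not tested.

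Zinc against water was tested within each genotype. In GRDim 6 of the 37 genes were higher and 0 lower, against 0.869% of tested genes higher and 0.82% lower. The fitted change was above 0 in 35 of the 37 genes, with a median of 0.50 against -0.01 for all tested genes. The GRDim water libraries stand in this comparison and in the genotype comparison on water, so the 2 are not independent. Without the Myh11 covariate 2 genes were called, Cyp2d26 and Cyp4b1, and with the tissue label as covariate Cyp2d26 alone, against 0.294% and 0.276% of tested genes higher. In GRDim the muscle-rich libraries are labelled IEC on water and ileum on zinc, and the muscle-poor ones the reverse, so within a side zinc and the tissue label cannot be told apart.

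Cell type markers moved with zinc in GRDim too. The summed level of the absorptive enterocyte markers went from 9340 to 10000 CPM on water to 10200 to 12300 CPM on zinc in muscle-rich libraries, and from 19600 to 20200 to 20600 to 22800 CPM in muscle-poor ones, without overlap on either side, while none of the 10 was called. Of 8 lymphocyte markers 1 was lower and 0 higher (median -0.65), with sums of 3930 to 4840 CPM on water and 3460 to 4370 CPM on zinc in muscle-rich libraries and, without overlap, 248 to 422 and 138 to 197 CPM in muscle-poor ones. Of 8 goblet, tuft and enteroendocrine cell markers 1 was lower, and 1 each was higher of 9 ileal, 11 proximal and 11 liver markers. Of 8 mesenteric fat markers none was called (median -1.47), and in muscle-poor libraries their sum went from 13.6 to 18.6 CPM on water to 9.32 to 12.3 CPM on zinc without overlap. Other sums separated in muscle-rich libraries alone. That of macrophage markers went from 433 to 472 CPM on water to 303 to 412 CPM on zinc. That of epithelial markers went from 17700 to 18800 to 19500 to 19900 CPM, and that of endothelial markers from 99 to 102 to 107 to 113 CPM. The part of these markers in the zinc changes was not tested.

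Cyp2d26 had the smallest adjusted p of the 6 genes. Its GRDim range of 22.6 to 69 CPM on water became 66.7 to 177 CPM on zinc, with a median of 119 CPM. On each side of the division all zinc values lay above all water values. The change was 1.52 ± 0.20 (adjusted p = 0.000337), and it was 1.53 ± 0.17 and 1.52 ± 0.22 in the muscle-rich and muscle-poor libraries alone (adjusted p = 0.00133 and 0.0134, with 0.74% and 0.551% of tested genes higher).

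Cyp4b1 went from 6.85 to 11.3 CPM on water to 10.3, 15.2 and 31.3 CPM (lowest, median, highest) on zinc. The ranges overlapped over all libraries, but on each side of the division no water library reached a zinc library. The change was 0.99 ± 0.19 (adjusted p = 0.00357). Averaged over the genotypes, its zinc effect in muscle-rich minus that in muscle-poor libraries was -0.65 ± 0.22 (adjusted p = 0.271, not called).

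Cyp2c65 and Cyp2c55 both rose. Cyp2c65 stood at 8.23 to 16.6 CPM on water and at 22.8, 33.6 and 53.5 CPM on zinc, without overlap (1.47 ± 0.35, adjusted p = 0.0149). Cyp2c55 stood at 4.24 to 21.5 CPM on water and at 44.3, 59.6 and 146 CPM on zinc, also without overlap (2.68 ± 0.71, adjusted p = 0.024). The call for Cyp2c55 was lost in 4 of 12 fits that left out 1 library, with fitted changes of 2.18 to 3.18.

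Of the Cyp3a genes, Cyp3a25 was at 52.4 to 134 CPM on water and at 98.2, 152 and 281 CPM on zinc in GRDim, with overlap (1.05 ± 0.29, adjusted p = 0.0284), and its call was lost in 5 of 12 fits without 1 library. Cyp3a59 was at 0.391 to 1.62 CPM on water and at 1.72, 2.2 and 2.88 CPM on zinc, a low level but without overlap (1.15 ± 0.23, adjusted p = 0.00395). Cyp3a11 was at 42 to 163 CPM on water and at 108, 233 and 427 CPM on zinc and was not called (1.33 ± 0.50, adjusted p = 0.101), but was called in the muscle-rich libraries alone (1.78 ± 0.43, adjusted p = 0.0453), along with Cyp2c65, Cyp2d26, Cyp3a25 and Cyp3a59. Of the 50-base words of Cyp3a25, Cyp3a59 and Cyp2c65, 73.2%, 70% and 79.4% are unique to the gene. Cyp3a44 was not called either (1.51 ± 0.55, adjusted p = 0.0911), nor was Cyp3a13 (0.29 ± 0.10, adjusted p = 0.0587).

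By adjusted p alone 10 genes were higher on zinc in GRDim, against 6.23% of tested genes. Those under the fold limit were Cyp4f14 (0.44 ± 0.08, adjusted p = 0.00281), Cyp4f16 (0.31 ± 0.08, adjusted p = 0.0176), Cyp2j6 (0.27 ± 0.07, adjusted p = 0.0218) and Cyp4f13 (0.24 ± 0.08, adjusted p = 0.0445). Cyp2b10 (0.80 ± 0.59, adjusted p = 0.425), Cyp2r1 (0.36 ± 0.25, adjusted p = 0.387), Cyp2s1 (0.11 ± 0.06, adjusted p = 0.213) and Cyp4v3 (0.25 ± 0.10, adjusted p = 0.117) were not called.

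In GRWT no member was called on zinc, against 0.147% of all tested genes. At an unadjusted p under 0.05, 7 of the 37 passed, against 11% of all tested genes, and DESeq2 called 0 as well, against 0.159%. Cyp4f16, a Cyp4f gene expressed well here, passed the adjusted p but not the fold limit. It was at 83.6, 83.6, 103, 137 and 132 CPM on water and at 142, 148, 119 and 176 CPM on zinc, and was higher in the zinc libraries on each side of the division (0.54 ± 0.09, adjusted p = 0.00592). Cyp2d26 changed by 0.41 ± 0.22 (adjusted p = 0.509) and Cyp4b1 by 0.25 ± 0.19 (adjusted p = 0.662).

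The difference between the 2 zinc effects was tested as an interaction, which called 0 members, against 0.0122% of tested genes. At an unadjusted p under 0.05, 7 members passed, against 10.6%, and DESeq2 called 2, Cyp4v3 and Cyp2d26, against 0.9% of tested genes by that tool. In edgeR, Cyp2d26 had an interaction of 1.11 ± 0.30 (adjusted p = 0.286). By edgeR as fitted here, the rise in GRDim is thus not shown to differ from the change in GRWT. An edgeR fit with a replicate block, on fewer libraries, called Cyp2d26, Cyp4v3 and Cyp2c68, against 2.02% of tested genes. The zinc effect differed between the sides of the Myh11 division in 1 member, Cyp3a13 (0.49 ± 0.10, adjusted p = 0.0355, against 0.11% of tested genes higher), and this was lost in 14 of 20 fits that left out 1 library.

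**Figure D3:**
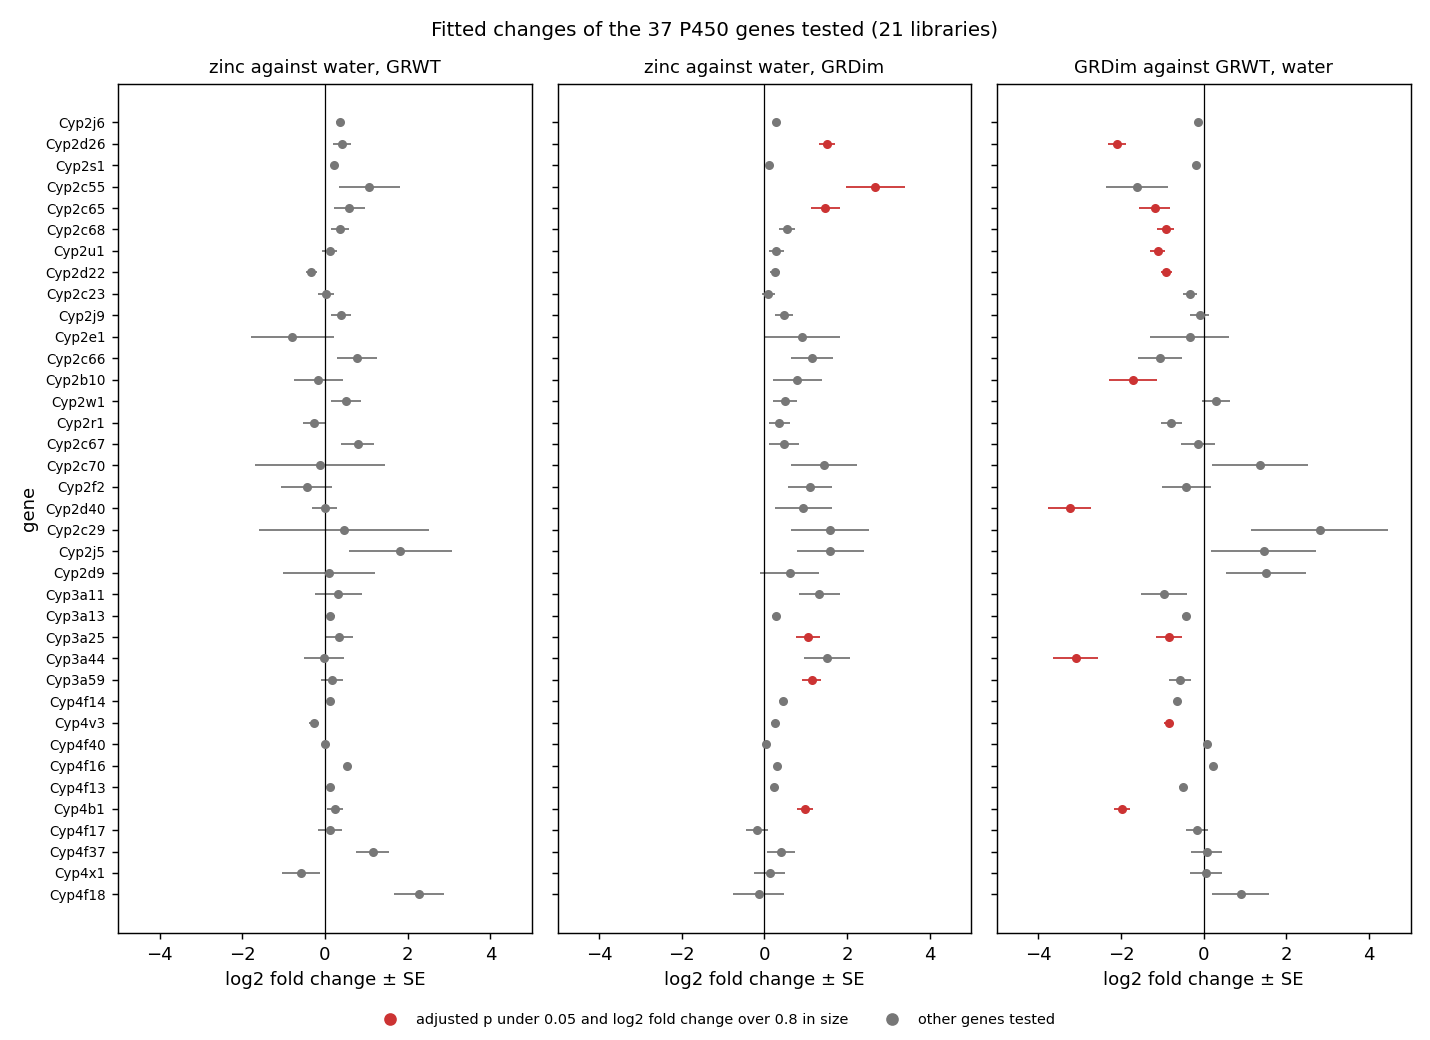
Fitted log2 fold changes with their SE for the 37 genes tested, in 3 comparisons, over 21 libraries; red points passed both limits. Red points lie left of 0 for GRDim against GRWT on water (11 genes) and right of 0 for zinc in GRDim (6 genes), and no point is red for zinc in GRWT.

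The genes around the P450s were read from lists named by their known roles. Por, which feeds electrons to every microsomal P450, was at 56.5 to 77.1 CPM in GRWT on water and 42 to 84 CPM in GRDim, and was called neither between genotypes on water (-0.12 ± 0.08, adjusted p = 0.265) nor on zinc in GRDim (0.14 ± 0.07, adjusted p = 0.214). Of 16 electron partners and haem synthesis genes none was called in any comparison. Of 19 nuclear receptors and factors tested, 1 was called, Nr0b2 (the repressor SHP), lower in GRDim on water by -2.23 ± 0.79 (adjusted p = 0.0402). Nr3c1 differed under the fold limit, by -0.32 ± 0.06 in GRDim on water (adjusted p = 0.000258). Its change on zinc in GRDim was 0.28 ± 0.05 (adjusted p = 0.00272). Nr1i2, the gene of PXR, was at 111 to 139 CPM in GRWT and 74.6 to 120 CPM in GRDim on water (-0.36 ± 0.08, adjusted p = 0.00176, under the fold limit). On zinc in GRDim it changed by 0.28 ± 0.08 (adjusted p = 0.0219), also under that limit.

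Among 33 drug-handling genes outside the P450s, 9 were higher on zinc in GRDim and 0 lower, against 0.869% and 0.82% of tested genes, with a median log2 fold change of 0.54 over the 33. Gsta1, a glutathione transferase, changed by 2.32 ± 0.48 (adjusted p = 0.00538), and Aldh1a1, a retinal dehydrogenase, by 1.22 ± 0.12 (adjusted p = 7.35e-06). Gsta3, Gstm1, Gstm3, Fmo5, Abcb1a, Abcc2 and Aldh1a7 were the others. In GRWT on zinc 1 of the 33, Gstm1, was higher (0.88 ± 0.15, adjusted p = 0.00567). On water 8 of the 33 were lower in GRDim, among them Abcc2 (-1.27 ± 0.25) and Abcb1a (-0.94 ± 0.18), the efflux pumps of the brush border, and 2 were higher, Akr1b8 (1.61 ± 0.19) and Abcc3 (0.94 ± 0.21), against 3.47% and 3.9% of tested genes. Of 15 other enzymes of the arachidonate cascade, Alox15 alone was called, higher in GRDim on water (2.28 ± 0.30, adjusted p = 1.98e-05) and lower on zinc in GRDim (-1.71 ± 0.27, adjusted p = 0.000822). Of 17 peroxisome proliferator targets, 2 were lower in GRDim on water, Angptl4 (-1.45 ± 0.26) and Fabp2 (-1.04 ± 0.14), and 1 was higher, Acot12 (1.26 ± 0.33). Angptl4 alone was higher on zinc in GRDim (1.09 ± 0.25, adjusted p = 0.0117).

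Several low liver-type members were highest where liver transcripts were highest. Alb, the gene of albumin, was at 142 and 61.1 CPM in GRDim zinc ileum replicates 1 and 2, at 45.8 and 13.8 CPM in GRDim water IEC replicates 4 and 5, and at 13.7 CPM in GRWT zinc ileum replicate 1, and at or under 6.86 CPM in the other 16 libraries tested. Cyp2c29 was at 2.64, 1.24, 0.652, 0.132 and 0.129 CPM in the same 5 libraries, and Cyp2c70, a bile acid hydroxylase of mouse liver, at 2.5, 1.11, 0.652, 0.527 and 0.129 CPM. The values of 0.132 and 0.129 CPM are 2 counts each, under the level of 3 counts. Cyp2c29 was also at 0.386 CPM (5 counts) in GRDim water ileum replicate 1, where Alb was at 0, and Cyp2c70 at 0.229 and 0.206 CPM (3 counts each) in GRWT zinc ileum replicate 2 and GRWT water IEC replicate 5, where Alb was at 0.0765 and 3.23 CPM. In the remaining libraries tested each gene had at most 2 counts. Cyp2e1, an ethanol-oxidising enzyme of liver and fat, was at 9.44 CPM in the first of these, and also at 4.57, 4.87 and 3.19 CPM in GRWT water IEC replicates 4 and 5 and GRWT zinc IEC replicate 4, in which 8 markers of mesenteric fat summed to 136, 151 and 236 CPM. None of Cyp2e1, Cyp2c29, Cyp2c70, Cyp2f2, Cyp2d9 and Cyp2j5 was called in the comparisons above.

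With these 5 libraries left out, a fit added after the data were seen called 1 member on zinc in GRDim, Cyp2d26 (1.44 ± 0.25, adjusted p = 0.028, against 0.199% of tested genes higher). The fitted changes of the other 5 were 2.79 ± 0.96 for Cyp2c55, 1.43 ± 0.44 for Cyp2c65, 1.11 ± 0.26 for Cyp4b1, 0.95 ± 0.41 for Cyp3a25 and 0.95 ± 0.26 for Cyp3a59, each within its SE of the change over 21 libraries. For GRDim on water it called 7 lower, against 1.88%: Cyp2d26 (-1.89 ± 0.26), Cyp4b1 (-1.97 ± 0.25), Cyp3a44 (-2.96 ± 0.80), Cyp2d40, Cyp2u1, Cyp2d22 and Cyp2r1. On zinc it called Cyp4b1 alone lower in GRDim (-1.19 ± 0.26, adjusted p = 0.0448, against 0.0663%). This fit also holds fewer libraries.

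**Figure D4:**
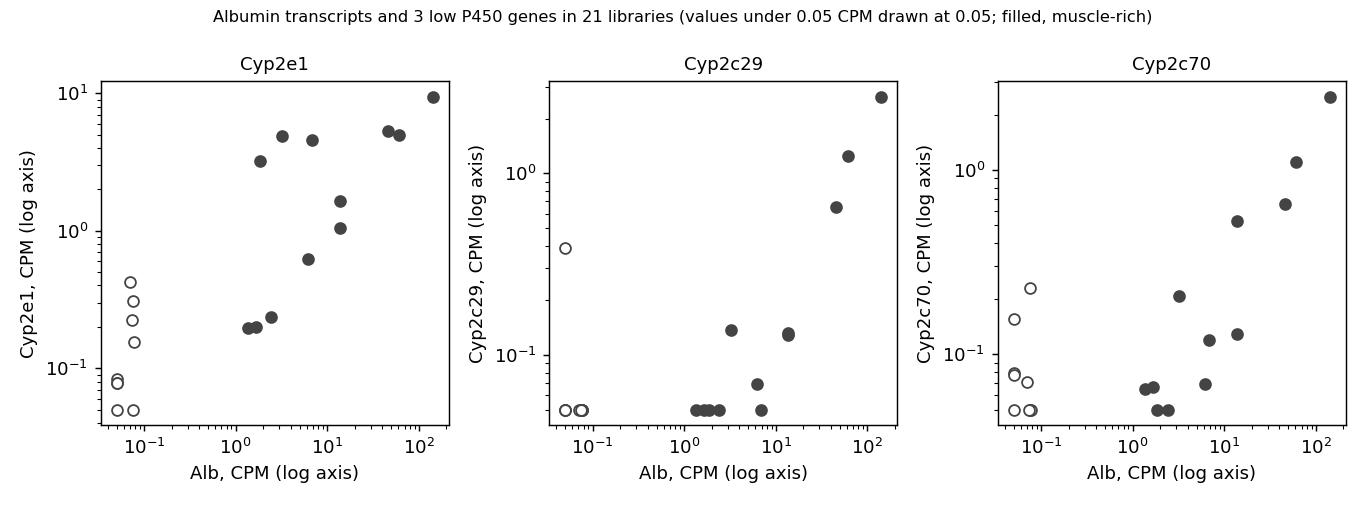
Levels in CPM (log axes, values under 0.05 drawn at 0.05) of Cyp2e1, Cyp2c29 and Cyp2c70 against Alb in the 21 libraries tested; filled circles are muscle-rich and open circles muscle-poor. The library with the highest Alb, 142 CPM, has the highest value of each of the 3 genes.

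The library WT_ZN1-3, labelled GRWT zinc ileum replicate 3, was unlike the others in these genes. The 44 genes took 1.41% of its counts and 0.122 to 0.317% of those of the other libraries. Of the 44 genes, 26 were above all 21 other libraries, 3 (Cyp4f40, Cyp2w1 and Cyp4x1) were below all, and 15 lay within. Cyp2c38, Cyp2d34 and Cyp4a10 reach the sum of 50 counts only through this library, so their place above the rest is no finding. Of the other 41 genes, 23 were above. Of the 37 tested genes 22 were above and 3 below, while over all tested genes 24.6% were above and 28.2% below all others. Cyp3a11 was at 4710 CPM against 42 to 442 CPM elsewhere, and Cyp2b10 at 2450 CPM against 0 to 4.11 CPM. Cyp2c29 was at 594 CPM against at most 2.64 CPM and Cyp2c66 at 572 CPM against at most 4.4 CPM. Nr1i3, the gene of CAR, was at 35.5 CPM against 0.133 to 1.45 CPM, and Por at 665 CPM. Cyp3a44 did not share this: it was at 20.4 CPM, inside the range of 1.62 to 57.1 CPM of the other libraries. The 10 markers of absorptive enterocytes summed to 89800 CPM in WT_ZN1-3, against 9340 to 28000 CPM in the other libraries. The liver marker Alb was at 0.851 CPM in this library. It is 1 library, so these values have no replicate check.

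**Figure D5:**
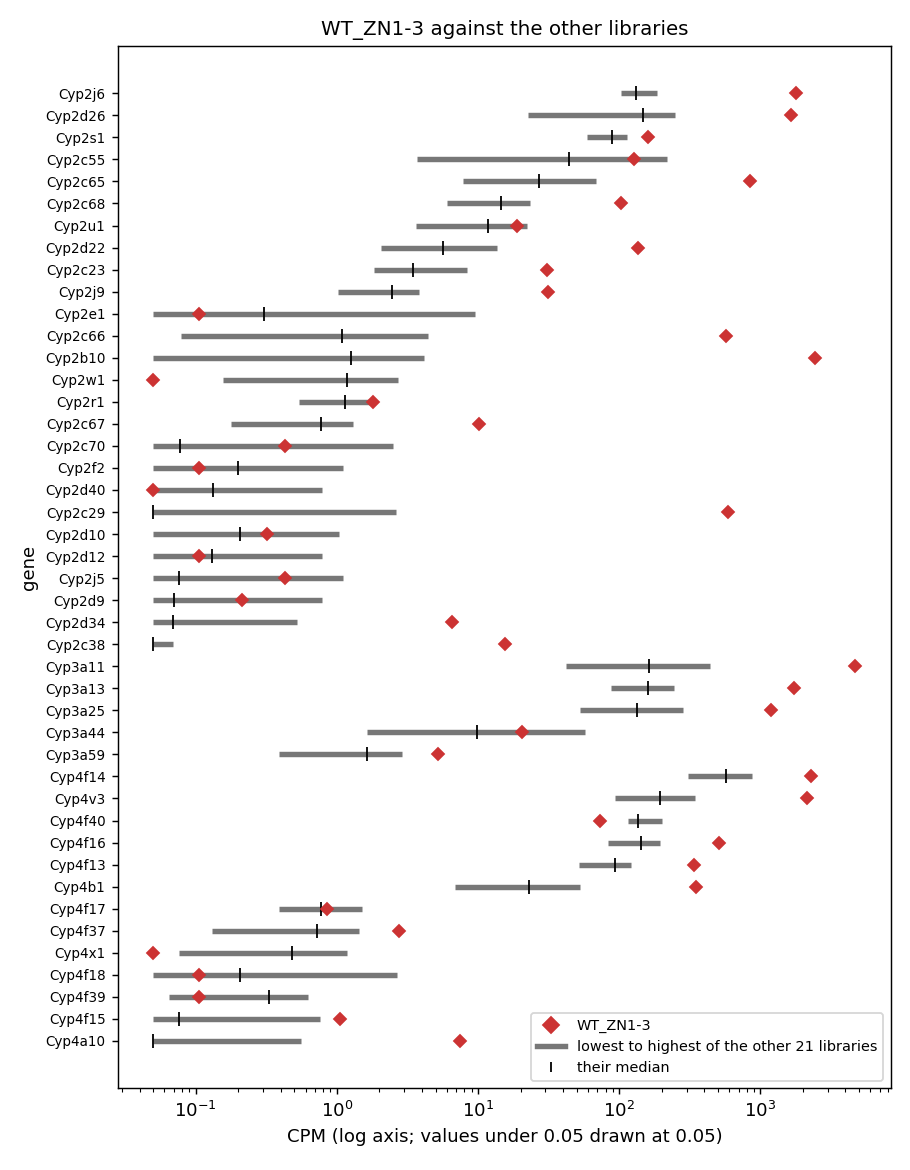
Level of each of the 44 genes in WT_ZN1-3 (red diamonds) and the range (bars) and median (ticks) of the other 21 libraries, in CPM on a log axis with values under 0.05 drawn at 0.05. Of the diamonds, 26 of 44 lie right of the bar, 3 of them (Cyp2c38, Cyp2d34 and Cyp4a10) genes that meet the count sum only through this library, with Cyp2b10, Cyp2c29, Cyp2c38 and Cyp2c66 farthest from it.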

How the data were processed

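Total RNA of mouse ileum or IEC was made into stranded single-end libraries. Per the labels and the methods, the authors trimmed the reads with Trimmomatic, mapped them with HISAT2 2.0.4 to mm10 and counted them per gene with featureCounts without multimapping reads. The deposited values are raw counts. The annotation release and strand setting are not given in the sources used here. Columns were matched to samples by name, and 2 columns that share 1 name were used as unnumbered GRDim water ileum libraries. Gene type, exon length and overlaps came from GENCODE (GRCm38), which held 54809 of the 54838 identifiers.

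The members, gene lists and tests were chosen with earlier results of these data known. The named genes were all called members per comparison, all Cyp3a members, a list of intestinal and receptor-driven P450 genes, the called genes of the lists, Por, Nr1i2 and Nr3c1. Counts of 21 libraries were filtered with filterByExpr, scaled by TMM and fitted with edgeR 4.0.16 (R 4.3.3), robust quasi-likelihood test, 1 mean per condition plus the Myh11 covariate. Each p was two-sided and adjusted over all 16332 genes tested (Benjamini-Hochberg). CPM values are TMM-scaled, except those of the Myh11 division and the limit of 10 CPM of Alb, which use library totals. Where nothing says that libraries came from separate animals, p-values measure only the spread between these libraries. At these depths 3 counts correspond to 0.192 to 0.228 CPM before scaling, and lower values are not told from 0. Alternatives were DESeq2 1.42.0, its size factors, other filters and covariates, all 22 libraries, each side of the Myh11 division, a replicate block and leaving out each library. The fit was tested on simulated counts.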

Additional observations from a re-analysis of the deposited data

Results flagged for a closer look

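Within a condition, 31 of 139 sets of 5 or 6 libraries had 1 library far from the rest by Dixon's test at a nominal level of 1 in 20. The sets mix both sides of the Myh11 division and include WT_ZN1-3, so the count was not set against a chance rate. In 23 of the 31 sets the library apart was WT_ZN1-3, which the tests of the report left out. There the level was 4710 CPM for Cyp3a11, 2450 for Cyp2b10, 2300 for Cyp4f14, 2130 for Cyp4v3, 1790 for Cyp2j6, 1720 for Cyp3a13, 1660 for Cyp2d26 and 1180 for Cyp3a25. It was 849 CPM for Cyp2c65, 594 for Cyp2c29, 572 for Cyp2c66, 513 for Cyp4f16, 350 for Cyp4b1, 336 for Cyp4f13, 136 for Cyp2d22 and 103 for Cyp2c68. It was 31.2 CPM for Cyp2j9, 30.9 for Cyp2c23, 15.5 for Cyp2c38, 10.1 for Cyp2c67, 7.45 for Cyp4a10, 6.49 for Cyp2d34 and 5.21 for Cyp3a59. Of these, Cyp2c38, Cyp2d34 and Cyp4a10 meet the count sum only through this library.

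The other libraries that stood apart did so in 1 to 3 genes each. GRDim zinc IEC replicate 4 was the highest of its condition for Cyp3a25 (281 CPM) and Cyp2c55 (146 CPM). GRDim water ileum replicate 1 was the highest for Cyp2b10 (2.78 CPM). GRDim water IEC replicate 4, with 45.8 CPM of Alb, was the highest for Cyp2e1 (5.28 CPM), Cyp4f17 (1.5 CPM) and Cyp2d9 (0.782 CPM). GRDim zinc ileum replicate 2 was the highest for Cyp4x1 (1.17 CPM), and GRWT zinc ileum replicate 1 for Cyp4f18 (2.65 CPM).

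The genotype difference on water differed between muscle-rich and muscle-poor libraries by an interaction, on the log2 scale, of -1.34 for Cyp2c68, -1.13 for Cyp2d26, -0.96 for Cyp2u1, -0.56 for Cyp4v3, -0.52 for Cyp4f14 and -0.41 for Cyp4f13. The zinc effect differed by 0.49 for Cyp3a13.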

How the results depend on the processing

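In counts of called members, zinc in GRDim (6 in the report) gave 2 without the covariate, 2 with all 22 libraries, 2 in muscle-poor libraries, 1 with the tissue label and 1 without libraries over 10 CPM of Alb. GRDim against GRWT on water (11) gave 6 without the covariate, 6 with the tissue label, 6 with all 22 libraries, 7 in a fit of the compared conditions alone, 2 in muscle-poor libraries and 7 without libraries over 10 CPM of Alb. GRDim against GRWT on zinc (4) gave 0 without the covariate, 0 with the tissue label, 0 in muscle-poor libraries, 8 in muscle-rich ones, 13 with all 22 libraries and 1 without libraries over 10 CPM of Alb. The zinc by genotype interaction (0) gave 2 by DESeq2. With all 22 libraries both interactions with the Myh11 division gave 0. Leaving out each library in turn gave 0 to 1 for zinc in GRWT, 4 to 8 for zinc in GRDim, 7 to 13 for the genotypes on water, 4 to 6 on zinc, 0 to 0 for the zinc by genotype interaction, 0 to 1 for zinc by the Myh11 division and 1 to 8 for genotype by that division. The fit of zinc by the division without GRWT zinc ileum replicate 2 could not be made, since it removes the lone muscle-poor GRWT library on zinc. The share of all tested genes called, in either direction, moved too. With all 22 libraries it was 0.555% for zinc in GRDim, 5.68% for the genotypes on water, 3.83% on zinc, 0.0427% for zinc by the division and 1.31% for genotype by it. In the fit of the compared conditions alone it was 7.5% on water. Over the fits without 1 library it ran from 0.104 to 0.215% for zinc in GRWT, 1.17 to 2.32% for zinc in GRDim, 5.84 to 9.18% on water, 1.19 to 2.96% for the genotypes on zinc, 0 to 0.123% for the interaction, 0.0368 to 0.63% for zinc by the division and 2.55 to 8.99% for genotype by it. The cause of these shifts was not tested.

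Replicate numbers did not pair the libraries: of 23 pairs with the same number 10 correlated over 0.1 (r from -0.26 to 0.46), and 5 of 19 libraries correlated best with their own number. The fit with a replicate block held these 19 libraries, without the unnumbered GRDim water libraries, which are muscle-poor. Each replicate number stands under a single tissue label, so the block also carries the label. With the replicate block the counts, in either direction, were 0 for zinc in GRWT, 9 for zinc in GRDim, 16 for the genotypes on water, 5 on zinc and 3 for the interaction, against 0.148%, 3.69%, 9.55%, 1.64% and 2.02% of all tested genes. The 3 were Cyp2d26 (1.64 ± 0.17, adjusted p = 0.00056 by edgeR), Cyp4v3 (0.75 ± 0.10, adjusted p = 0.00111) and Cyp2c68 (0.74 ± 0.16, adjusted p = 0.0263). With the replicate block the log2 fold change turned to -0.04 for Cyp2c29 on zinc in GRDim, and between genotypes on zinc to 0.1 for Cyp3a25, 0.46 for Cyp2c55 and 0.01 for Cyp4f16.

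The other log2 fold changes that turned in sign were of genes that were not called, apart from Cyp3a13 by the Myh11 division (-0.7 with all 22 libraries). For zinc in GRWT, muscle-poor libraries gave -1.01 for Cyp3a11, -0.29 for Cyp3a13, 0.73 for Cyp3a44, -0.44 for Cyp3a59 and -2.03 for Cyp2c55. All 22 libraries gave 0.05 for Cyp3a44, 4.99 for Cyp2b10 and 0.74 for Cyp4v3, no covariate gave -0.04 for Cyp3a13 and 0.01 for Cyp3a44, and the compared conditions alone gave -0.05 for Cyp3a11. For the genotypes on water, muscle-poor libraries gave 0.28 for Cyp3a11 and 0.73 for Cyp2c66.

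For the genotypes on zinc, muscle-poor libraries gave 0.09 for Cyp3a13, 0.66 for Cyp3a25, 0.33 for Cyp2b10, 4.07 for Cyp2c55, 0.86 for Cyp2c65, 0.64 for Cyp2c66 and 0.07 for Cyp4f16. Cyp3a11 was at 0 without a covariate, -1.99 with all 22 libraries and -0.52 in muscle-rich ones, and Cyp2c29 was at -5.78 with all 22. Cyp2c55 was at 0.03 by DESeq2, 0.01 with DESeq2 size factors, 0 and 0.01 with the weaker and stricter filters and 0.63 without libraries over 10 CPM of Alb, where Cyp2c65 was at 0.05. Cyp4f16 was at 0.16 with the tissue label, 0.14 without a covariate, 0 by DESeq2 and with its size factors, 0.04 in the compared conditions alone and 0.01 in muscle-rich libraries. Leaving out each library in turn gave, for zinc in GRWT, -0.19 to 0.72 for Cyp3a11, -0.34 to 0.22 for Cyp3a44, -0.53 to 0.23 for Cyp2b10 and -0.32 to 2.37 for Cyp2c29. For the genotypes on zinc it gave -0.44 to 0.55 for Cyp3a11, -0.36 to 0.08 for Cyp3a25, -0.61 to 0.8 for Cyp2c55, -0.33 to 0.02 for Cyp2r1 and -0.07 to 0.05 for Cyp4f16.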

Other observations

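Several members differed in level between the sides of the Myh11 division in every condition with at least 2 libraries on each side. On water in GRWT, Cyp2d22 was at 12.3 CPM in muscle-rich and 3.37 CPM in muscle-poor libraries (means), and in GRDim at 6.01 and 2.23 CPM. Cyp2c23, an arachidonate epoxygenase, lay the other way, at 2.66 and 7.44 CPM in GRWT and at 2.16 and 5.44 CPM in GRDim. Cyp2u1 was at 11.5 and 19.7 CPM in GRWT and at 3.71 and 12.4 CPM in GRDim. Cyp4f18, known from neutrophils, was at 0.464 and 0.0514 CPM in GRDim, the latter under the level of 3 counts. In GRDim on water the sides also differ in tissue label. Here muscle-rich and muscle-poor were told apart from the data, so these values carry no test.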
